A study of Caenorhabditis elegans with 2 samples.

Results

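The mir-51 family of Caenorhabditis elegans comprises 6 microRNA genes, cel-mir-51, cel-mir-52, cel-mir-53, cel-mir-54, cel-mir-55 and cel-mir-56, out of 46890 nuclear genes in the annotation. The genes were chosen by name, because strong peaks of the protein M03D4.4 had been seen at them in these data. The presence and height of those peaks therefore describe how the genes were selected, and no test was run on them. M03D4.4 is a predicted zinc finger protein of the C2H2 class, and its chromatin occupancy was mapped by immunoprecipitation and sequencing (ChIP-seq).

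The series holds 1 group of 2 biological replicates of whole embryos of mixed stages and mixed sex, collected 2 h after the eggs were bleached to synchronise them. The worms were of strain OP696, genotype unc-119(tm4063) III; wgIs696, in which a stably inherited transgene expresses M03D4.4 with GFP and FLAG at its C-terminal end. Both replicates carry the unc-119 allele and the transgene, and the promoter of the transgene is not given in the sources used here. Chromatin was sheared by sonication and precipitated with an antibody against GFP. No untagged worms, other stage or other tagged protein were analysed here, and whole embryos do not tell in which cells M03D4.4 was bound. The peak lists hold no RNA levels, so the expression of the family in these embryos was not measured.

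Each peak carries a deposited signal, used here as a height within a list. The 2 replicate lists and the pooled list hold 30000 peaks each, strong and weak. The IDR list was selected by how well peak ranks recur (irreproducible discovery rate), and 1423 of its peaks are nuclear. Not all of these had a matched peak in both replicates, since 1420 had one in replicate 1 and 1421 in replicate 2. Matches were set by an overlap rule, so a missing match does not show that the replicate lacked a peak there. Of the 1423, 7 lay within 2 kb of the family. Their signals, summits and ranks are the same in the pooled list, so the 2 lists are not separate measurements of them. Sequencing depth is unknown, because the files hold no read counts.

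MicroRNAs are cut from hairpin precursors by the nuclear enzyme Drosha and the cytoplasmic enzyme Dicer. One arm of the hairpin is loaded into an Argonaute protein and guides it to messenger RNAs that pair with the seed, which is bases 2 to 8 of the microRNA. The mir-51 family is related to the miR-99 and miR-100 family of other animals and is abundant in worm embryos. Single members can be lost with little effect, whereas worms that lack the whole family die as embryos or young larvae, with a pharynx that detaches. The cadherin gene cdh-3 is a reported target in that attachment.

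The 6 genes form 3 loci. On chromosome IV, cel-mir-51 (WBGene00003279, chrIV:11026013-11026112) and cel-mir-53 (WBGene00003281, chrIV:11027593-11027691) lie on the minus strand within 1679 bp. A second locus of the same chromosome holds cel-mir-52 alone (WBGene00003280, chrIV:14034008-14034107, plus strand). The third, on chromosome X, holds cel-mir-54 (WBGene00003282, chrX:13144996-13145094), cel-mir-55 (WBGene00003283, chrX:13144827-13144924) and cel-mir-56 (WBGene00003284, chrX:13144691-13144787), all on the minus strand within 404 bp. All coordinates are those of ce11, the assembly also named WBcel235.

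What makes these genes a family is the seed. The mature microRNAs that carry it, written 5′ to 3′ from RefSeq on WBcel235 with the seed in capitals, are:
cel-mir-51: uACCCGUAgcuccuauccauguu
cel-mir-52: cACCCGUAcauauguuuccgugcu
cel-mir-53: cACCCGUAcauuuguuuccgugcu
cel-mir-54: uACCCGUAaucuucauaauccgag
cel-mir-55: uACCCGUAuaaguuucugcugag
cel-mir-56: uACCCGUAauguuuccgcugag
The seed ACCCGUA stood in 6 of the 458 mature microRNAs annotated in the worm, and those 6 are the family. It opens the mature RNA that begins at base 16 or 17 of the hairpin in cel-mir-51, cel-mir-52 and cel-mir-53. In cel-mir-54, cel-mir-55 and cel-mir-56 it opens the one that begins at base 61. The X-linked genes thus carry the family's microRNA on the 3′ arm of the hairpin, and the genes of chromosome IV carry it on the 5′ arm.

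Beyond the seed the hairpins had little sequence in common, apart from one pair. The hairpins of cel-mir-52 and cel-mir-53, which lie at different loci, are shown whole because they are the most alike:
cel-mir-52 hairpin: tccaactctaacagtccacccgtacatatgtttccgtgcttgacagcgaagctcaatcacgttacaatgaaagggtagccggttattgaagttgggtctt
cel-mir-53 hairpin: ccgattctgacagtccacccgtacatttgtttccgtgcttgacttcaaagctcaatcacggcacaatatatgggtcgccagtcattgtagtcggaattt
These were identical over 79% of aligned positions. Their longest identical run, a measure added after the identities were seen, was 17 bases and includes the seed. The other 14 pairs of hairpins were 34% to 52.4% identical, and their longest run was 11 bases, again with the seed in it.

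The messenger RNA of cdh-3 holds 1 match to the seed in its 3′ UTR, at chrIII:7741354-7741360 on the minus strand. It is shown with its flank, the match in capitals:
cdh-3 site: ttttcgattcattttTACGGGTt
A match to the same 7 bases, TACGGGT, stood in the 3′ UTR of 239 of 16794 genes (1.42%). A match of letters does not measure repression.

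The strongest peaks of M03D4.4 at the family stood at cel-mir-51 and cel-mir-52, 2 genes whose hairpins are only 42.6% identical. The windows around the strongest peak of each locus are printed on the strand of the gene from RefSeq WBcel235, to show what lies under each summit. Bases of the annotated hairpin are in capitals, and the summit is base 150 or 151 of each run.
cel-mir-51 summit, chrIV:11026048-11026347, minus strand: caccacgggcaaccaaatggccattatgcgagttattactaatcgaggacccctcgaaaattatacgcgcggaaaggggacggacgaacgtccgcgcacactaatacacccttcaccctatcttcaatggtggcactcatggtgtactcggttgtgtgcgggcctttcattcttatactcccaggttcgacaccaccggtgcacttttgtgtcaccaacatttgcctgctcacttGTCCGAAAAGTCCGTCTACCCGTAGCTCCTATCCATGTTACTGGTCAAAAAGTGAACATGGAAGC
cel-mir-52 summit, chrIV:14033889-14034188, plus strand: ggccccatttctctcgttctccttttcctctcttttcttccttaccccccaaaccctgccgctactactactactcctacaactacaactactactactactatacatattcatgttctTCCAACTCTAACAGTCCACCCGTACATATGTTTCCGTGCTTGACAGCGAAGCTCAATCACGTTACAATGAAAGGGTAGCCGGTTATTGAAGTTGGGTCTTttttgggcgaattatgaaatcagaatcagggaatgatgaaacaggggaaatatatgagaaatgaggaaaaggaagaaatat
cel-mir-56 summit, chrX:13144229-13144528, minus strand: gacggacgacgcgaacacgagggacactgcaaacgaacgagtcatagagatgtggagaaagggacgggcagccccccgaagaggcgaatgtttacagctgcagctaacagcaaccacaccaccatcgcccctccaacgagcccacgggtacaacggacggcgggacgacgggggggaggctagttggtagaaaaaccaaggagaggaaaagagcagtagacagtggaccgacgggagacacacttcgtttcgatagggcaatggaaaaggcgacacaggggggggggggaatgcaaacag
The first summit fell before the hairpin, the second inside it, and the third past its end. The cel-mir-56 window holds no hairpin base.

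At cel-mir-51 the peak signal reached 859 in replicate 1 and was 704 in replicate 2. Both libraries placed it near the top of their lists, at rank 5 and rank 6. In the IDR list its signal was 1558.5, rank 6 of 1423 and 7.59 times the median nuclear IDR peak. The summit at chrIV:11026198 lay 86 bp upstream of the 5′ end of the hairpin, and the summits of the replicates were 2 bp apart.

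The cel-mir-51 summit lay within an annotated non-coding RNA gene, F36H1.17 (chrIV:11026131-11026219, minus strand). This gene is 89 bases long, reads in the same direction as cel-mir-51 and ends 18 bp before its hairpin. Its 5′ end was the nearest of any annotated gene, 21 bp from the summit. The sequence is shown because the peak centres on it, with one short motif in capitals:
F36H1.17: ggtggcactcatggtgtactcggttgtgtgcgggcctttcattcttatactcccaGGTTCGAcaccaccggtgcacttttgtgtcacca
The capitals mark GGTTCGA, the core of the internal B box, a promoter element of RNA polymerase III genes such as those for tRNAs. It covers bases 56 to 62 of F36H1.17 and lies 37 bp from the summit, and after 2 further bases it is followed by CC, as in the longer form of the B box. F36H1.17 is not annotated as a tRNA.

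The main peak at cel-mir-52 reached a signal of 689 in replicate 1, against 418 in replicate 2. It ranked 10 in replicate 1 and 33 in replicate 2, so it was high in both and higher in replicate 1. In the IDR list its signal was 1090, rank 15 and 5.31 times the median. The summit at chrIV:14034039 fell 31 bp into the hairpin, within the mature microRNA itself (chrIV:14034024-14034047). It also lies within a non-coding RNA gene of the opposite strand. The replicates placed the summit 35 bp apart, and in replicate 1 it fell 5 bp upstream of the hairpin.

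A second summit stood in the same 712 bp interval, at chrIV:14034243, past the 3′ end of the cel-mir-52 hairpin and in no annotated gene. Its signal was 278 in replicate 1 and 96.8 in replicate 2. The replicate 1 value was above the IDR signal of 261, whereas over the other nuclear IDR peaks the sum of the replicates was a median of 1.00 times the IDR signal. Another IDR summit lay at chrIV:14032871, 1137 bp upstream, inside a non-coding RNA gene of the minus strand. It had 141 in replicate 1, where it ranked 467, and 49.8 in replicate 2, where it ranked 4470. None of the other 6 IDR peaks had as low a value in replicate 2.

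The cel-mir-53 peak was the weakest of the 7 in the IDR list, though not in either replicate. Its signal was 105 in replicate 1 and 56.8 in replicate 2, and 166 in the IDR list, at rank 1080 and 0.808 times the median. The summits of the matched replicate peaks, at chrIV:11027666 and chrIV:11027557, were 109 bp apart. Replicate 2 listed another summit there at chrIV:11027760, which was stronger, with a signal of 67.6, and nearer to the replicate 1 summit, at 94 bp on its other side. The matched peak is the one whose summit is nearest the IDR summit.

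On chromosome X, 2 IDR summits flanked the 3 genes. The one past cel-mir-56, at chrX:13144379, had 207 in replicate 1, 168 in replicate 2 and 362 in the IDR list, at rank 244. The one upstream of cel-mir-54, at chrX:13145212, had 102 in replicate 1, 151 in replicate 2 and 252 in the IDR list, at rank 494. Replicate 1 had the higher signal at the first, and replicate 2 at the second. No IDR summit fell inside a hairpin of this locus.
cel-mir-54 summit, chrX:13145062-13145361, minus strand: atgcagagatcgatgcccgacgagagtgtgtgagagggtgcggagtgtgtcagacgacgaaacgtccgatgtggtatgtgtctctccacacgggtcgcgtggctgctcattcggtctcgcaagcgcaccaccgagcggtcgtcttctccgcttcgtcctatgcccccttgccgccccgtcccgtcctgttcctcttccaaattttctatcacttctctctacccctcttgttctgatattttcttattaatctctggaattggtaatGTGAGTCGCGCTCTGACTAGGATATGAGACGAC
This window is printed as above, with the 33 hairpin bases it holds in capitals. Both X summits lie in introns of F09A5.3, a protein-coding gene of the plus strand whose annotated span holds the 3 microRNA genes in the opposite direction. The nearest annotated 5′ end to the upstream summit was that of F09A5.11, a non-coding RNA gene, at 59 bp.

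**Figure D1:**
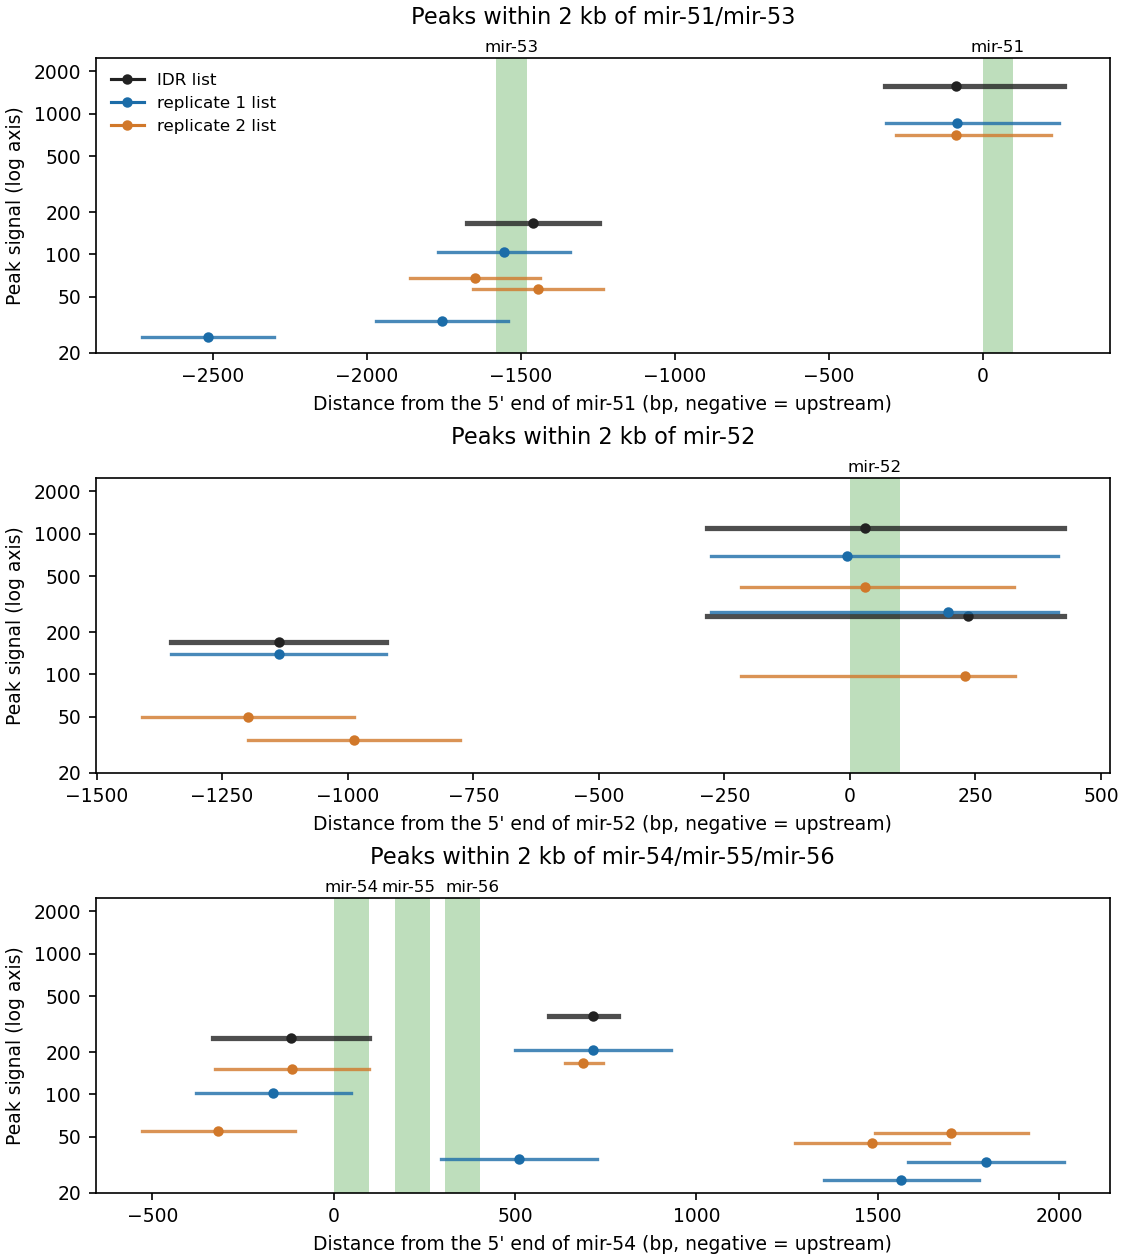
Peaks of the IDR list (black), replicate 1 (blue) and replicate 2 (orange) within 2 kb of each of the 3 loci. The horizontal axis is the distance in bp from the 5′ end of the named gene along its strand, the vertical axis is the deposited signal on a log scale, bars span the peak intervals, dots mark summits and green bands mark hairpins. The peaks at cel-mir-51 and cel-mir-52 stand above all others in every list, and summits agree to 2 bp at cel-mir-51 but lie 94 and 109 bp apart at cel-mir-53, where replicate 2 has 2 summits.

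In each replicate the order of the 2 strongest peaks was the same, with cel-mir-51 above cel-mir-52. The lower cel-mir-51 value (704, replicate 2) was also above the higher cel-mir-52 value (689, replicate 1), though how the signal scales between the lists is not known. Within each replicate the main cel-mir-52 peak was above the remaining peaks of the family. Further down, the order was not stable. The second cel-mir-52 summit was above the cel-mir-56 peak in replicate 1 (278 against 207) and below it in replicate 2 (96.8 against 168). The cel-mir-54 peak was below the cel-mir-53 peak in replicate 1 (102 against 105) and above it in replicate 2 (151 against 56.8).

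The ratio of replicate 2 to replicate 1 differed widely within the family. It was 0.819 at cel-mir-51 and 0.811 at cel-mir-56, near the median of 0.880 over the other nuclear IDR peaks. It was 0.606 at the main cel-mir-52 summit, 0.543 at cel-mir-53, 0.355 at the upstream cel-mir-52 summit and 0.348 at the second cel-mir-52 summit. The last 3 fell at the 4.80, 0.564 and 0.494 percentiles of 1418 matched peaks. With the other replicate 2 summit at cel-mir-53 the ratio there would be 0.645, at the 12.6 percentile. The cel-mir-54 summit stood at the opposite end, with 1.49 at the 94.5 percentile. Among the other nuclear IDR peaks, the lower and upper quartiles of the ratio were 0.751 and 1.05.

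**Figure D2:**
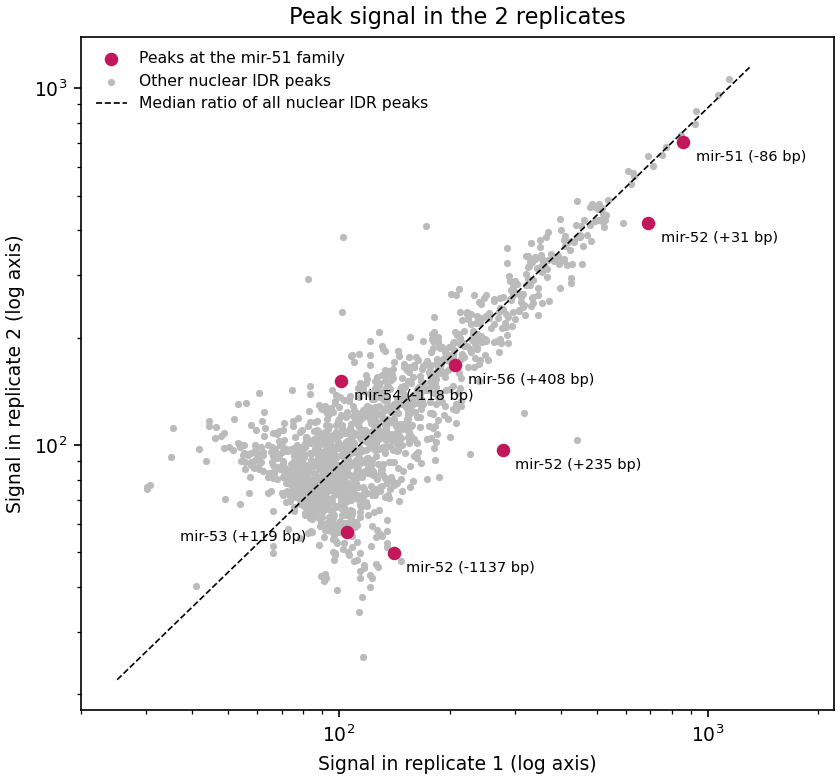
Signal of each nuclear IDR peak in replicate 1 (horizontal, log scale) and replicate 2 (vertical, log scale), with the 7 peaks at the mir-51 family in red, labelled by gene and distance from its 5′ end, and the other peaks in grey. The dashed line is the median ratio over all nuclear IDR peaks. All 3 cel-mir-52 summits lie below the line, at ratios of 0.606, 0.355 and 0.348, and the cel-mir-54 summit lies above it at 1.49.

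Set beside the other nuclear IDR peaks, the 7 peaks had a median signal of 261 against 205, a median gap between replicate summits of 35 bp against 22 bp, and a median G and C content of 50.5% against 44.5% in windows of 301 bp. The G and C content was spread widely, at 33.2% around the cel-mir-53 summit and 58.5% around the cel-mir-56 summit. Most peaks of the list have one fixed width, 430 bp in 1104 of 1423. The cel-mir-52 interval was wider at 712 bp and the cel-mir-51 interval at 582 bp, while the cel-mir-56 interval was narrow at 193 bp. The −log10 q-value stood at its maximum of 2.35 for all but the cel-mir-53 peak (2.30) and the upstream cel-mir-52 peak (2.28).

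Weaker summits stood beside most of the stronger ones, though not beside the cel-mir-51 summit. Within 2 kb of the loci there were 11 summits in the pooled list, with signals of 56.1 to 1558.5, and 12 in each replicate list. In the pooled list 10 of the 11 had their nearest neighbour 190 to 210 bp away (90.9%), against 3278 of all 29980 nuclear summits (10.9%). The 10 are pairs of mutual neighbours, so each spacing is counted from both of its summits. Most summits of that list are weak, and the share among summits of like strength was not counted. This spacing was noticed only after the summits had been seen, and its cause was not tested. Beyond 2 kb the next IDR summit was 55227 bp from the cel-mir-51 locus (signal 176), 146331 bp from cel-mir-52 (277) and 23370 bp from the X-linked locus (926, rank 31).

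A gene was counted as having a peak if any summit fell in a window that starts 1000 bp before its 5′ end and stops 500 bp after it. By this count 6 of 6 family genes had an IDR summit in the window, from 6 distinct summits. The same held for 28 of the 255 other microRNA genes (11%), for 936 of 19973 protein-coding genes (4.69%) and for 2068 of all 46884 other genes (4.41%). The family was picked for these peaks, so nothing is read from the contrast. The summit upstream of cel-mir-54 serves cel-mir-54, cel-mir-55 and cel-mir-56 alike, at 118, 288 and 425 bp from their 5′ ends, so those genes are not independent.

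The highest signal in the window was 166 to 1558.5 over the 6 family genes, with a median of 307. Over the 28 other microRNA genes it was 149 to 418, with a median of 179. Those 28 values came from 19 distinct summits, so the genes are not independent. The median is itself the value of 1 summit that mir-35 to mir-41 share. Among the 28 genes, mir-354 had 213 in replicate 1 and 199 in replicate 2, and mir-5549 had 146 and 143 in the same order. The gene mir-58a, of the bantam family, had 129 and 141, and mir-1824 had 147 and 111. The fifth, mir-55b, is annotated on the strand opposite to cel-mir-55 (chrX:13144830-13144919) and counts the summits of the family itself, at 207 and 168.

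**Figure D3:**
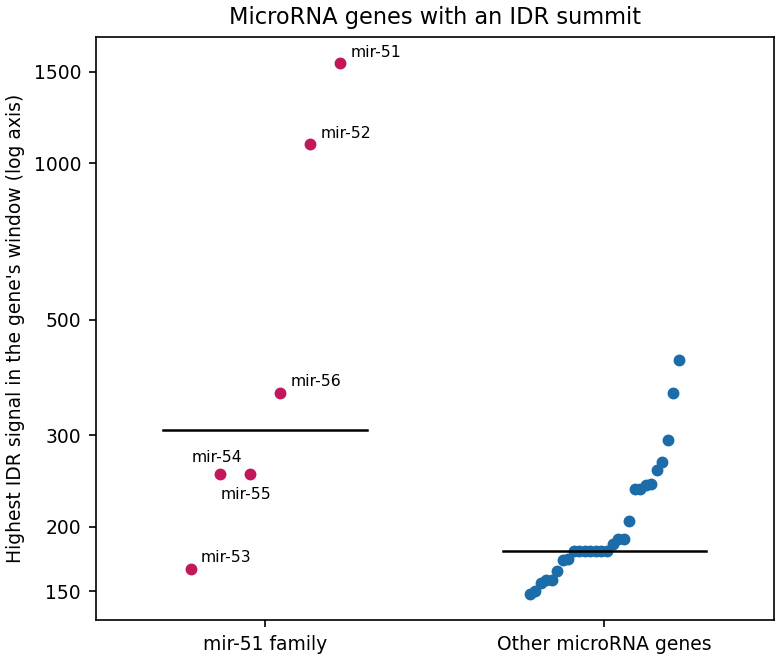
Highest IDR signal within the window of each microRNA gene that had an IDR summit, on a log scale, for the 6 genes of the mir-51 family (red, left) and 28 other microRNA genes (blue, right). Each dot is a gene, genes that share a summit repeat its value, and the horizontal lines are medians, 307 and 179. Both cel-mir-51 and cel-mir-52 lie above 1000, while the highest other microRNA gene lies at 418.

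**Figure D4:**
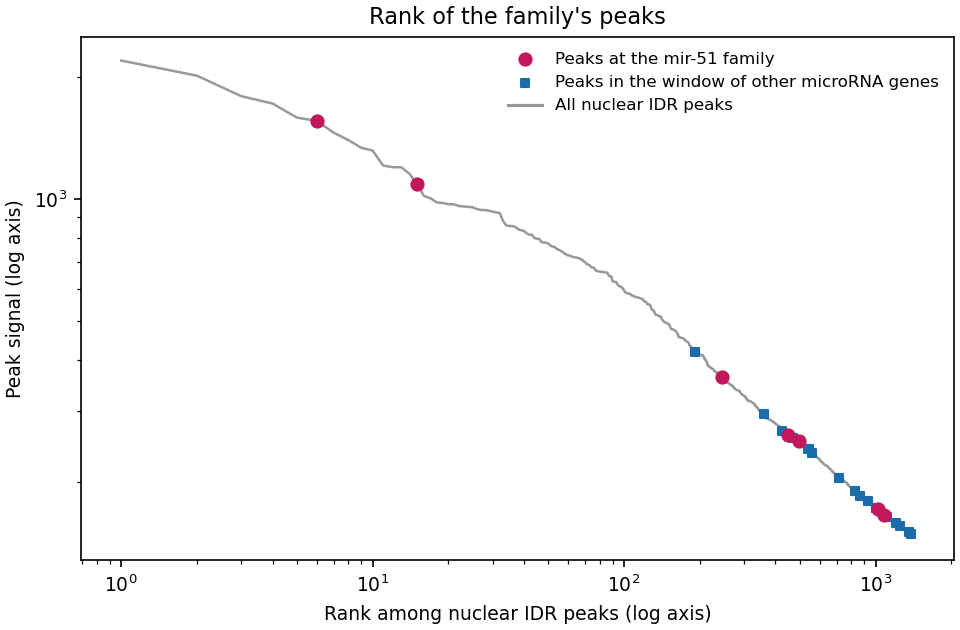
Deposited signal against rank for all nuclear IDR peaks (grey line, both axes on a log scale), with the 7 peaks at the mir-51 family as red dots and peaks in the windows of other microRNA genes as blue squares. The family's peaks run from rank 6 to rank 1080, so the 7 do not form one level.

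Other microRNA families known for roles in worm development differed among themselves. The mir-35 family, the other large family of the early embryo, had an IDR summit at 7 of 8 genes, all from 1 summit in their cluster on chromosome II. That summit had 104 in replicate 1, 82.4 in replicate 2 and 179 in the IDR list, and only mir-42, which lies apart, had none. The let-7 family, which times later larval stages, had an IDR summit at 0 of 4 genes, although 3 had a summit in the pooled list. The annotated let-7 gene (chrX:14743590-14745321) is much longer than a hairpin, so its window was set at the 5′ end of that span. The lin-4 family, which acts in the early larva, had 0 of 2, with 1 in the pooled list. The pooled list is permissive, since 125 of the 255 other microRNA genes (49.0%) had a summit in it.

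Genes of the microRNA pathway were counted the same way, with cdh-3 among them, and 6 of 19 had an IDR summit (31.6%), beside 4.69% of all protein-coding genes. The Argonaute gene alg-5 had the highest, with 331 in replicate 1 and 328 in replicate 2. The gene nhl-2, whose product is a cofactor of the silencing complex, had 222 and 233 in that order. For ain-1, which encodes the worm GW182 protein that binds Argonaute, the values were 186 and 169. The remaining 3 were lower in the IDR list, at 220 for pqn-59, 152 for hrpk-1, an hnRNP K gene, and 149 for cgh-1, a DEAD-box helicase gene. Most of these summits were far from the gene. They lay 829 bp upstream of the 5′ end for alg-5, 833 bp for nhl-2, 921 bp for ain-1, 734 bp for cgh-1 and 690 bp for pqn-59. Only the hrpk-1 summit was closer, 228 bp past the 5′ end. Whether another gene had a nearer 5′ end was not tested.

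None of the main microRNA Argonaute genes alg-1 and alg-2, the Drosha gene drsh-1, its partner pash-1 or the Dicer gene dcr-1 had an IDR summit in the window. The target gene cdh-3 had no summit there in the IDR or the pooled list. The other genes without an IDR summit were ain-2, xrn-1, xrn-2, paxt-1, ntl-1, ccf-1 and tsn-1. These 19 genes were listed with earlier results of the same data known, so the share is a description.

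For each family peak, the 2 nuclear IDR peaks most like it were found by the distance between log2 signals over the 2 replicates. The cel-mir-51 peak was closest to one 49 bp upstream of the snoRNA gene T06C12.16 (845 in replicate 1, 737 in replicate 2). The next was 526 bp upstream of the protein-coding gene K12H4.5 (773 and 683). The main cel-mir-52 peak was closest to one 14 bp upstream of a tRNA gene (WBGene00022955; 589 and 419), then to one at the snoRNA gene H09I01.2 (528 and 427). The second cel-mir-52 summit was closest to peaks at sls-2.1, a spliced leader RNA gene (227 and 94.5), and srpr-2.2, a signal recognition particle RNA gene (317 and 123). The distances on the log2 scale ran from 0.0706 to 0.394. The nearest 5′ end was that of a non-coding RNA gene at 5 of these 6 peaks (83.3%). It was so at 168 of the 234 nuclear IDR peaks at least as strong as the weakest of the 6 (71.8%), and at 695 of all 1423 (48.8%).

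The weaker family peaks were most like peaks at protein-coding genes, apart from the peak near the microRNA gene mir-62. Over all nuclear IDR peaks the nearest 5′ end was that of a non-coding RNA gene at 48.8%. The share among peaks as weak as these was not counted, and like peaks were found by signal only. Nothing about the family is therefore read from the class of these genes. The cel-mir-56 peak was closest to peaks at egl-30, the gene of a Gq alpha subunit (209 and 164), and srh-16, a predicted chemoreceptor gene (202 and 171). The cel-mir-54 peak was closest to peaks near mir-62 (95.9 and 142) and mrpl-15, a mitochondrial ribosomal protein gene (98.1 and 138). The cel-mir-53 peak was closest to peaks at pat-9, a zinc finger gene of muscle (108 and 56.8), and act-4, an actin gene (102 and 57.9). The upstream cel-mir-52 peak was closest to peaks at sav-1, the worm Salvador gene (135 and 51.6), and unc-60, an actin depolymerising factor gene (148 and 47.4). These distances were 0.0355 to 0.137, over 2 replicate values only. Each of these peaks is named by the nearest annotated 5′ end, which need not be close. It lay 30 bp from the summit at srh-16, but 629 bp at mrpl-15, 672 bp at mir-62 and 887 bp at sav-1.

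No tRNA, snoRNA, snRNA or rRNA gene lay near the family. The nearest 5′ end of such a gene was 18995 to 56949 bp from the 7 summits. Of the 15 strongest nuclear IDR peaks, counted after they had been seen, 9 had one within 500 bp. Another 2 were the cel-mir-51 and cel-mir-52 peaks, and 4 were neither. The share over all nuclear IDR peaks was not counted, so nothing about the family is read from these counts. The protein-coding neighbours within 2 kb were alh-3, an aldehyde dehydrogenase gene, and hrg-5, a heme-responsive gene, on either side of the cel-mir-51 locus, and F09A5.3 around the X-linked locus. Around cel-mir-52 there were 7 genes of non-coding RNAs, whose names begin with Y37A1B, and 8 piRNA genes, small RNAs of the germ line.

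The sequences under the peaks were searched on both strands, in windows of 301 bp, for 7 short motifs. TATAAA stood in 1 of the 7 family windows and in 19.1% of all nuclear IDR windows. GAGAGA stood in 4 of 7 and in 46.3%, with overlapping copies counted, and was densest in the upstream cel-mir-52 window with 7 copies and in the cel-mir-53 window with 4. GATAA stood in 1 of 7 and in 38.2%, GGGCGG in 2 of 7 and in 18.2%, and TTTTTTT in 1 of 7 and in 35.1%. CACGTG stood in 0 of 7 and in 5.34%. With 7 windows these counts are descriptions, and no word of 8 bases was shared by the strongest window of all 3 loci, in 301 bp or in the central 101 bp.

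The B box core GGTTCGA is described further because the cel-mir-51 window shown above holds it. That was 1 of the 7 family windows (14.3%), near the share of 13.4% over all nuclear IDR windows. Nothing about the family is read from this count. Of the 225 windows with a tRNA gene within 500 bp 61.8% held it, and of the 1198 without one 4.34% did. The longer form, GGTTCGA with CC after any 2 bases, was looked at only after the cel-mir-51 window had been read. It stood in 61.3% of windows with a tRNA gene, and in 15 of the 1198 without one (1.25%), of which the cel-mir-51 window is 1. A motif match is not evidence of which polymerase transcribes F36H1.17 or cel-mir-51, and occupancy by RNA polymerase III was not measured here.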

How the data were processed

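Chromatin immunoprecipitation and sequencing was done on 2 biological replicates, per the labels, which form 1 group. The files are peak lists in ce11 coordinates: a relaxed list for each replicate and for the pool, and the IDR list derived from them, per the deposited text descriptions. The peak signal is a value the authors deposited. Their deposited −log10 q-value breaks ties in ranks and is given for the family's peaks. How reads were aligned, peaks called, the IDR limit set and the signal scaled is not given in the sources used here. Lists on ce10 were not used.

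The family members, the other gene lists and the rule for named genes were chosen with earlier results of these data known. Named were the 6 family genes, listed genes with an IDR summit, the 2 peaks most like each family peak, genes within 2 kb other than piRNA genes, and the 5 other microRNA genes with the highest IDR signal. Gene positions came from Ensembl release 115, and sequences and mature microRNAs from RefSeq, both on WBcel235. No peak lay past a chromosome end. Loci were joined where genes lay under 5 kb apart. Between 2 lists, peaks whose overlap spanned at least 50% of either were matched, the one with the nearest summit where several did. No test was run, since the design has 1 group and the genes were selected on this signal. let-7 and ntl-1 were matched through RefSeq symbols or aliases after their names were not found. The window assignment was tested on simulated data and returned every planted distance. Python 3.11.15, NumPy 2.4.6, pandas 2.3.3, Biopython 1.88 and Matplotlib 3.10.9 were used.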

Additional observations from a re-analysis of the deposited data

How the results depend on the processing

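The count of 6 family genes with an IDR summit did not change with 500 or 2000 bp upstream, or with any overlap of the peak. Taking as many top pooled peaks also gave 6, but could give no lower count. The family's IDR peaks hold the same signals and ranks in the pooled list. The count was 5 among the 711 strongest IDR peaks and 5 to 6 with either replicate left out. Without replicate 1 the gene lost was cel-mir-53. Replicate 2 did list summits in its window, at ranks 1771 and 2991, so this loss is not the absence of a peak. The count was 3 when each summit was given only to the nearest 5′ end of any gene. That assigned the cel-mir-51 summit to F36H1.17 and the cel-mir-54 summit to F09A5.11. The 7 IDR peaks within 2 kb were 6 within 1 kb and 7 within 5 kb.

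The height over the median peak depended on the list. In the pooled list, whose 30000 peaks are mostly weak, it was 25.8-fold at cel-mir-51, 18.1-fold at cel-mir-52 and 6.00-fold at cel-mir-56. With either replicate left out it was 21.5 to 24.3, 12.8 to 19.5 and 5.13 to 5.84. Over the median of the peaks matched to the IDR list, a scaling chosen after those values were seen, it was 7.01 to 7.65, 4.16 to 6.14 and 1.67 to 1.84. The replicate ratios of the 3 strongest peaks were equal when peaks were matched by 1 bp of overlap, or with summits at most 100 bp apart.

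Summit offsets from the hairpin were -87 to -85 bp at cel-mir-51, -5 to 30 bp at cel-mir-52 and 381 to 407 bp at cel-mir-56 with either replicate left out. The offset at cel-mir-52 thus turned to upstream, at -5 bp, without replicate 2. Interval midpoints gave -27, 70 and 382 bp. No paired analysis was possible because the design has 1 group. With 2 replicates and no read counts, the precision of each signal could not be given.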
